A study of Mus musculus with 4 samples.

Results

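Expression of 10 genes of enterocyte lipid uptake and chylomicron formation was compared between young and old intestinal stem cells (ISCs). The genes, Fabp1, Fabp2, Apoa1, Apoa4, Apoc3, Apob, Mttp, Cd36, Slc27a4 and Dgat1, were taken by symbol from the 52459 genes of the count table. All 10 were among the 13692 genes that passed the filter on low counts, Cd36 through a single old library. ISCs came from crypts of the small intestine of wild-type (WT) C57/Bl6 mice, which were female by the study's methods, after the villi had been scraped away. Cells were sorted with the SM6 strategy, in which CD31- and CD45- cells that carry EPCAM, CD166, high CD44, high EPHB2, medium CD24 and low GRP78 are kept. Young ISCs (ISC_2mth) were from mice of 2 months and old ISCs (ISC_22mth) from mice of 22 months, with 2 pools of 5 animals at each age and 1 full-length library for each pool. No treatment or transgene was used in any group, and differences between the animals of a pool cannot be seen.

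Absorptive cells of the small intestine take up fatty acids and monoacylglycerol released from dietary fat, rebuild triglyceride in the endoplasmic reticulum and export it in chylomicrons. Cd36 and Slc27a4 act at the uptake step, cytosolic fatty acid binding proteins carry the lipid, Dgat1 completes triglyceride, and Mttp loads it onto apolipoprotein B, to which smaller apolipoproteins are added. These genes are known for high expression in villus enterocytes, whereas ISCs at the crypt base are undifferentiated and give rise to these cells.

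Fabp1, Fabp2 and Apob were higher in old ISCs, by 5.08-fold, 1.90-fold and 1.44-fold. No member was called lower. These 3 of 10 members passed an FDR of 0.05 by edgeR's quasi-likelihood test, against 2.26% of all genes tested, of which 1.63% were called higher and 0.628% lower. An unadjusted p under 0.05 was reached by 6 members, against 16.9% of all genes. Genes for both cytosolic carriers and for the structural protein of the chylomicron were thus among those that rose, and the genes for uptake, triglyceride synthesis, lipid loading and the small apolipoproteins were not called. The log2 fold change was above 0 for 9 members, against 49.5% of all genes tested, and the members' median was 0.51, against -0.0049 for all genes. The ages did not overlap for 5 members (47.6% of all genes tested), with the old pools above for 4 (24.0%) and below for 1 (23.6%). Under other choices of test, scaling and filter, 2 to 4 members were called, and 2 to 5 with a pool left out. DESeq2 called 1.44% of all genes, the likelihood ratio test 4.46%, total counts 34.0%, no filter 2.24% and the replicate block 4.55%. With a pool left out, these shares were 1.15%, 2.17%, 4.80% and 5.22%, and under the other 8 alternatives 2.34%, 2.22%, 2.26%, 2.12%, 2.23%, 2.02%, 2.11% and 1.56%. The members were chosen with earlier results of these data known, so these counts describe the list and do not test it. In bulk RNA, a few cells with much of a transcript and many cells with a little of it cannot be told apart.

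The promoters of the 3 genes that rose are shown because these genes moved in the same direction. Each runs from 250 bases before to 50 bases after the RefSeq transcription start on GRCm38.p6, on the plus strand, and RefSeq promoters were matched for 8 of the 10 members. Capitals mark TTTATNG, a motif of the type bound by the intestinal CDX factors, on either strand.
Fabp1, chr6:71199629-71199928: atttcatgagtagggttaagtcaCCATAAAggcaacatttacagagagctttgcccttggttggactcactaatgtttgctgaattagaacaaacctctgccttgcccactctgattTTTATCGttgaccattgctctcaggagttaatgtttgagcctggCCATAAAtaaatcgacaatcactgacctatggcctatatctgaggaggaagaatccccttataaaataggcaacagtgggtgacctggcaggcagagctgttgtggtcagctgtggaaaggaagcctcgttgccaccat
Fabp2, chr3:122894822-122895121: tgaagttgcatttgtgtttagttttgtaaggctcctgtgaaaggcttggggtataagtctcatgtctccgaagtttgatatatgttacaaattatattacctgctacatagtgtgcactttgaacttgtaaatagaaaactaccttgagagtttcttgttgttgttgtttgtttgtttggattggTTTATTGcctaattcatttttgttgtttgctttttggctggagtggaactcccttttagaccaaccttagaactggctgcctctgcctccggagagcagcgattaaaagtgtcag
Apob, chr12:7977427-7977726: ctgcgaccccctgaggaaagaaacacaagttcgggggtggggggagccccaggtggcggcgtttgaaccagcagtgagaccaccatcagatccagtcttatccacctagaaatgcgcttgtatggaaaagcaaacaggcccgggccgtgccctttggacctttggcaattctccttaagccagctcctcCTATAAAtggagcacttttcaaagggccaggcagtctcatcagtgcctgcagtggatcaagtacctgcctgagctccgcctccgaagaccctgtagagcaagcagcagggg
TTTATNG occurred 3 times in the Fabp1 window and once each in those of Fabp2 and Apob, and in none of the other 5 member promoters, while 10.9% of all 32851 promoters of this length held it. It was 1 of 11 letter patterns searched on both strands, and its place was noticed only after the search, so the match is a description of these letters. In Apob the marked letters overlap the TATA box pattern TATAAA, 60 bases before the start. Fabp1 holds its own TATAAA 30 bases before the start, and 13.6% of all promoters have this pattern. Of the patterns for nuclear receptors and HNF factors, AGGTCA was found in Fabp1 and Cd36 (16.3% of all promoters) and GTTAAT in Fabp1 (7.10%). The GATA pattern AGATAA (11.2% of all promoters), the HNF4 patterns CAAAGTCCA (0.475%) and CAAAGNCCA (1.98%), the loose direct repeat GGTCANAG (5.32%), the full DR1 repeat (0.0396%) and an interferon-response (ISRE) type pattern (3.44%) were in none of the 8 windows. The shorter TTTAT, contained in TTTATNG, was in 5 of the 8 (40.0% of all promoters).

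Between 11662654 and 15975698 reads were counted per library, of which 62.6% to 65.7% in young and 72.9% to 73.8% in old pools fell on mitochondrially encoded genes. Scaling by total counts moved the all-gene median of the log2 fold changes to -0.50, and values below are after TMM normalization unless stated. Reads were amplified without molecular identifiers, so counting intervals cover counting error only. The label of ISCs was checked against 13 detected crypt base markers, among which Lgr5 had 231 ± 24.0 normalized CPM (mean ± SD, n = 2 pools) in young and 207 ± 1.76 in old ISCs and Olfm4 1266 ± 50.6 and 1200 ± 126. None of these markers was called here, and their median log2 fold change was -0.16. The study's own list of changed genes, from the same libraries, holds Axin2, Cdk6 and Rnf43 as lower and Slc12a2 as higher in old ISCs. By unadjusted p, 8 of the 13 were under 0.05 (16.9% of all genes tested), of which Axin2, Rnf43, Cdk6, Sox9 and Tnfrsf19 had negative and Ascl2, Slc12a2 and Prom1 positive log2 fold changes, from -0.46 for Tnfrsf19 and Axin2 (adjusted p = 0.26 and 0.051) to 0.33 for Ascl2. Tests are edgeR's fits across all genes, which borrow information on the spread across genes. No permutation test was run, since an exact permutation test of 2 against 2 pools cannot give a two-sided p below 0.333.

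**Figure D1:**
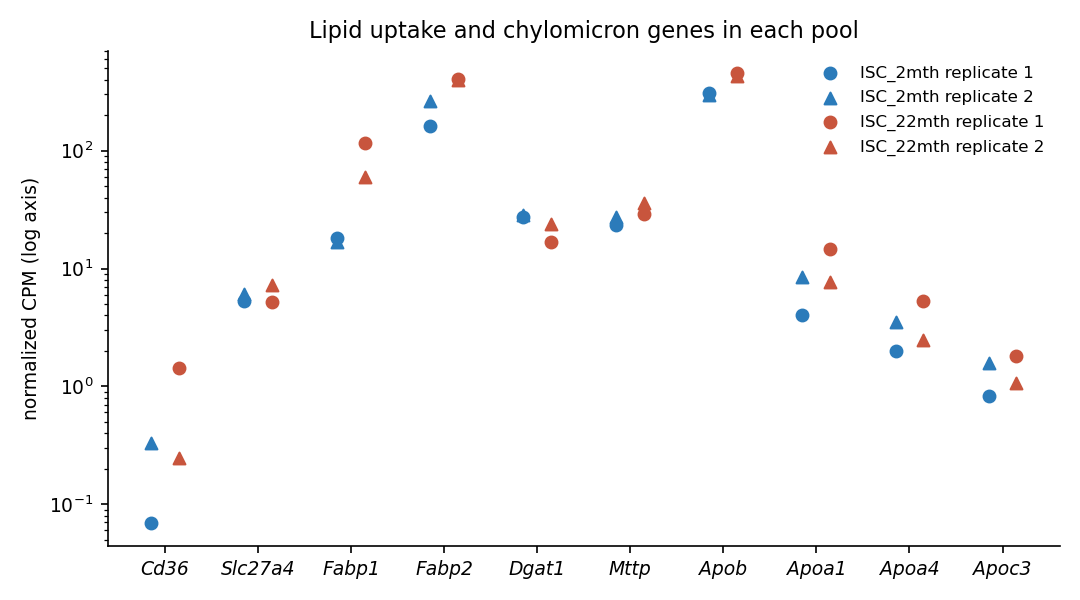
TMM-normalized counts scaled to library size (CPM, log axis) of the 10 genes in the 2 young (blue) and 2 old (red) pools, with circles for replicate 1 and triangles for replicate 2, ordered from uptake to the surface of the chylomicron. Old pools lie clear of young pools for Fabp1, Fabp2, Apob, Mttp and Dgat1, and overlap them for the other 5 genes.

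At the uptake step, neither gene was called. Cd36, a fatty acid translocase of the cell membrane that is also abundant in endothelium, macrophages and fat cells, had 1 and 5 counts in the young pools and 19 and 3 in the old pools. One old pool held most of the reads and the other lay within the young range. After scaling to normalized library size, the ratio of summed counts, old over young, was 4.27 (95% exact interval 1.68 to 12.9, counting error only). The fitted log2 fold change was 2.03 (standard error 1.12, adjusted p = 0.375 by edgeR's quasi-likelihood test). It was 1.34 without ISC_2mth replicate 1 and 3.45 without ISC_2mth replicate 2, and the gene did not pass the filter without ISC_22mth replicate 1. Markers of those other cell types were detected in part. The endothelial genes Cdh5, Kdr and Flt1, the fat cell genes Adipoq, Plin1 and Lep, and the macrophage gene Adgre1 had no count in any library. The fat cell list summed to between 4 and 13 counts per library, the endothelial list to between 114 and 137, most of them on Lyve1 and Prox1, and the leukocyte list to between 222 and 308, most of them on Itgam and Cd68. Itgam, a myeloid integrin, was called higher in old ISCs (log2 fold change 0.78, adjusted p = 0.030), while Cd68, a macrophage protein of the lysosome, had -0.79 (adjusted p = 0.32). The sort removes CD31+ and CD45+ cells, and the genes of these gates were near 0, with 1 and 0 counts in young and 1 and 7 in old pools for Pecam1 (CD31) and with 0 and 0 in young and 2 and 0 in old pools for Ptprc (CD45). The pool with 19 Cd36 counts had 1 and 2 of them. That pool, ISC_22mth replicate 1, also had the highest fat cell and leukocyte sums, 13 and 308 counts. After normalization its leukocyte sum was close to that of the other old pool (23.3 and 23.1 CPM). Its endothelial sum was 122 counts, within the range of the other pools. Whether such cells gave the Cd36 reads was not tested. Slc27a4 encodes FATP4, an acyl-CoA synthetase tied to fatty acid uptake. It had 77 and 92 counts in young and 69 and 89 in old pools, which overlapped. Its log2 fold change was 0.13, with a 95% interval from -0.42 to 0.68, so that rises or falls of moderate size remain possible at this depth.

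Among the carriers, Fabp1, or liver fatty acid binding protein, rose most. Its counts were 263 and 251 in the young pools and 1543 and 730 in the old pools. The young pools were close to each other, whereas the old pools differed from each other and both lay far above the young. Normalized expression was 17.4 ± 1.07 CPM in young and 88.3 ± 40.3 CPM in old ISCs (n = 2 pools each), a log2 fold change of 2.35 (standard error 0.22, adjusted p = 2.4e-06 by edgeR's quasi-likelihood test). Without ISC_22mth replicate 1 the log2 fold change was 1.78. That pool also held the highest summed level of the Paneth cell markers, 2100 CPM against 731 to 947 in the other 3 pools, and the part of this in the result was not tested. The gene spans 71199827 to 71205023 of chromosome 6 (GRCm38, GENCODE vM21), in 4 exons that no other gene overlaps.

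Fabp2, the intestinal fatty acid binding protein, had 2334 and 3986 counts in young and 5380 and 4898 in old pools. Here the old pools were close to each other and the young pools differed. Expression rose from 213 ± 72.9 to 404 ± 4.23 CPM (n = 2 pools per age), a log2 fold change of 0.93 (standard error 0.16, adjusted p = 0.0040 by edgeR's quasi-likelihood test). The change was 0.61 without ISC_2mth replicate 1 and 1.32 without ISC_2mth replicate 2. DESeq2 did not call Fabp2 (adjusted p = 0.22). The gene lies on chromosome 3 from 122895072 to 122899506.

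The ratio of Fabp1 to Fabp2 within a library does not depend on scaling. Per kilobase of exon it was 0.197 and 0.110 in young pools and 0.50 and 0.26 in old pools, so the ranges of the ages did not overlap. Fabp2 remained the higher of the pair in every library. Of the other 13 genes of the family that binds fatty acids, bile acids or retinoids, 3 passed the filter on low counts. Rbp2, the retinol carrier of enterocytes, rose from 6.66 ± 0.142 to 13.2 ± 1.82 CPM (log2 fold change 0.98, adjusted p = 0.020 by edgeR's quasi-likelihood test). Fabp6, the ileal bile acid binding protein, had 85 and 184 counts in young and 252 and 137 in old pools, with a log2 fold change of 0.75 (adjusted p = 0.18). Rbp7 had a log2 fold change of 0.57 (adjusted p = 0.25). Fabp4, the carrier of fat cells and endothelium, had no count in any library, and Fabp5 had between 8 and 13.

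Dgat1, which joins the last fatty acid to diacylglycerol, was the only member with a negative log2 fold change. It had 393 and 429 counts in the young pools and 222 and 292 in the old pools. Old pools lay below young pools, at 20.4 ± 5.03 against 27.8 ± 0.928 CPM, with a log2 fold change of -0.45 (95% interval -0.81 to -0.090) that was not called (adjusted p = 0.19 by edgeR's quasi-likelihood test). Under total counts it was called, at -0.94, which is 0.44 below the median of all genes under that scaling. It was also called without ISC_22mth replicate 2, at -0.72, and was -0.21 (adjusted p = 0.60) without ISC_22mth replicate 1. Dgat2, which catalyses the same step, had a log2 fold change of 0.61 (95% interval -0.18 to 1.39), and its difference from Dgat1 was not tested.

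For assembly, Apob encodes the protein on which each chylomicron is built. Its counts were 4517 and 4522 in young and 6002 and 5216 in old pools. Pools of the same age were close, and expression rose from 306 ± 8.48 to 441 ± 19.1 CPM (n = 2 pools per age), a log2 fold change of 0.53 (standard error 0.11, adjusted p = 0.013 by edgeR's quasi-likelihood test). The log2 fold change stayed between 0.48 and 0.57 with any pool left out. The call was lost without ISC_2mth replicate 1 (adjusted p = 0.056) and without ISC_2mth replicate 2 (adjusted p = 0.087). With total counts the change was 0.033, or 0.53 above the median of all genes. Apob lies on chromosome 12 from 7977648 to 8016835, with 29 exon blocks and 13934 bp of exon.

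Mttp, the microsomal protein that transfers triglyceride to apolipoprotein B, had 340 and 415 counts in young and 381 and 442 in old pools. After normalization the old pools lay above the young, at 32.5 ± 5.21 against 25.5 ± 2.86 CPM. The log2 fold change of 0.35 (95% interval 0.021 to 0.68) did not pass the threshold (adjusted p = 0.27 by edgeR's quasi-likelihood test) and became -0.13 with total counts. Its exons share 457 bp with antisense exons of Trmt10a and 132 bp with those of Gm43691, where reads cannot be told apart without strand.

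Apoa1, Apoa4 and Apoc3 lie next to each other on chromosome 9, between 46228580 and 46243459, and encode apolipoproteins of the particle surface. Apoa1, which is shared by chylomicrons and high-density lipoprotein, had 58 and 127 counts in young and 194 and 94 in old pools. Apoa4, a marker of fat-absorbing enterocytes, had 29 and 53 in young and 70 and 30 in old pools. Apoc3, an inhibitor of triglyceride clearance, had 12 and 24 in young and 24 and 13 in old pools. In all 3 genes the higher young pool was replicate 2, the higher old pool was replicate 1, and the ages overlapped. None was called by edgeR's quasi-likelihood test, with log2 fold changes of 0.85 for Apoa1 (95% interval 0.19 to 1.51, adjusted p = 0.17), 0.49 for Apoa4 (-0.35 to 1.34, adjusted p = 0.57) and 0.25 for Apoc3 (-1.02 to 1.52, adjusted p = 0.88). Without ISC_22mth replicate 1, the values were 0.31, -0.17 and -0.18. Apoa1 was called without ISC_2mth replicate 2 (1.48), without ISC_22mth replicate 2 (1.24), with no filter (adjusted p = 0.030) and with the replicate block (adjusted p = 0.024). Exons of Apoa4 overlap those of Gm47528 and Gm10680 on the opposite strand over 634 and 632 bp, so its count is uncertain.

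**Figure D2:**
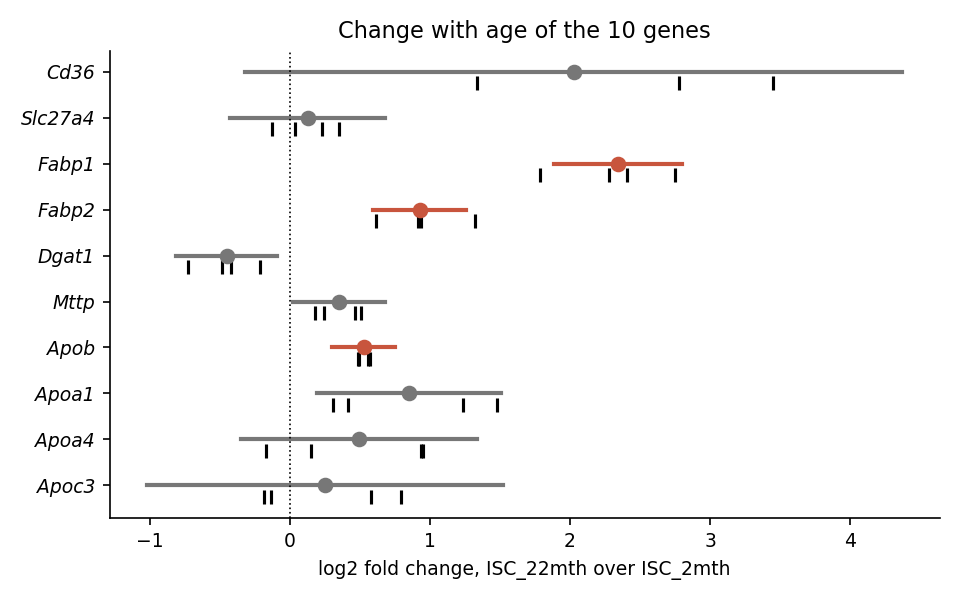
Log2 fold change, ISC_22mth over ISC_2mth, of the 10 genes with its 95% interval (dot and bar, red where the adjusted p was under 0.05), and the values with each of the 4 pools left out (black ticks). Ticks stay to the right of 0 for Fabp1, Fabp2, Apob, Mttp, Apoa1 and Cd36, to the left for Dgat1, and fall on both sides for Slc27a4, Apoa4 and Apoc3. Cd36 has 3 ticks, as it did not pass the filter without ISC_22mth replicate 1.

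Levels also varied between pools of the same age, with no test of these differences. Fabp1 differed by 0.97 on the log2 scale between the old pools and Fabp2 by 0.71 between the young pools. Cd36 had 1 to 19 counts per library and passed the filter only through ISC_22mth replicate 1, and Apoc3 had 12 to 24, so their ratios rest on few reads. The log2 ratio of ISC_2mth replicate 2 to replicate 1 was 1.07 for Apoa1, 0.81 for Apoa4, 0.94 for Apoc3 and -0.057 for Apob.

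**Figure D3:**
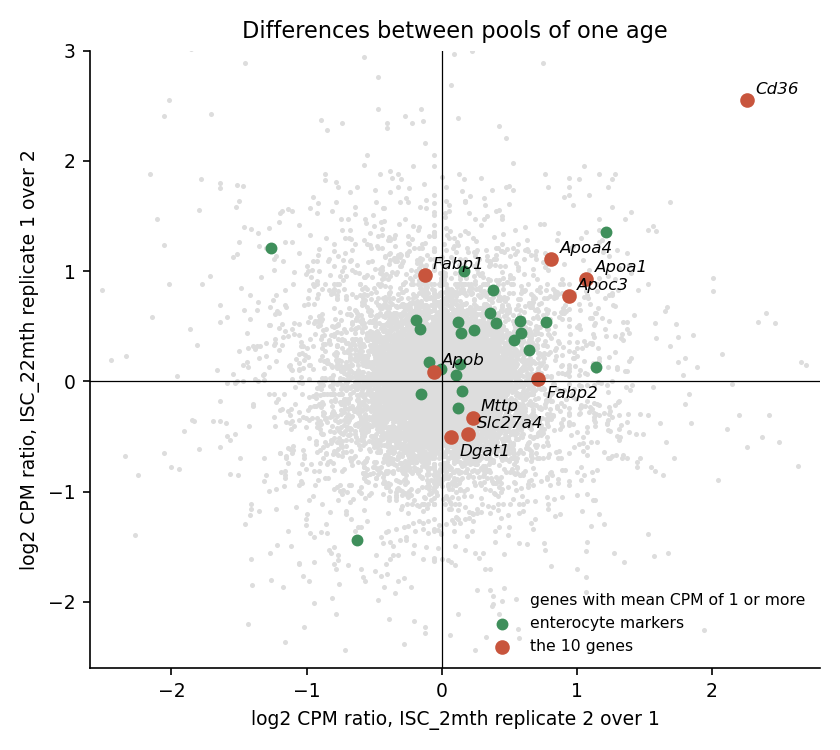
Log2 ratio of normalized CPM between the 2 young pools (horizontal, replicate 2 over 1) and between the 2 old pools (vertical, replicate 1 over 2) for the 10 genes (red), enterocyte markers (green) and genes with a mean CPM of 1 or more (grey, a few beyond the axes). Apoa1, Apoa4, Apoc3 and Cd36 lie at the upper right, at 0.77 or more on both axes, and Apob lies near the centre.

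Levels were compared between genes per kilobase of exon (normalized RPKM). Fabp2 was highest, at 220 ± 75.5 RPKM in young and 419 ± 4.38 in old ISCs (n = 2 pools per age). Fabp1 followed at 31.4 ± 1.93 and 160 ± 72.9, and Apob at 21.9 ± 0.609 and 31.6 ± 1.37. These 3 genes did not overlap each other in the pools of either age. Dgat1, Apoa1 and Mttp formed a middle group, at 9.09, 5.02 and 4.11 RPKM in young and 6.66, 9.05 and 5.24 in old ISCs, in which Apoa1 overlapped Mttp in young pools and Dgat1 overlapped both Apoa1 and Mttp in old pools. Apoa4, Slc27a4 and Apoc3 had mean levels of 1.19 to 1.52 RPKM in young and 1.42 to 2.14 in old ISCs and could not be ordered. Cd36 was lowest, at 0.0558 and 0.234 RPKM. Fabp1 and Fabp2 together took 82.8% and 86.6% of the members' summed RPKM in young and 91.2% and 90.5% in old pools. The order kept 7 of 10 places when the longest transcript was used for the length and all 10 under total counts.

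**Figure D4:**
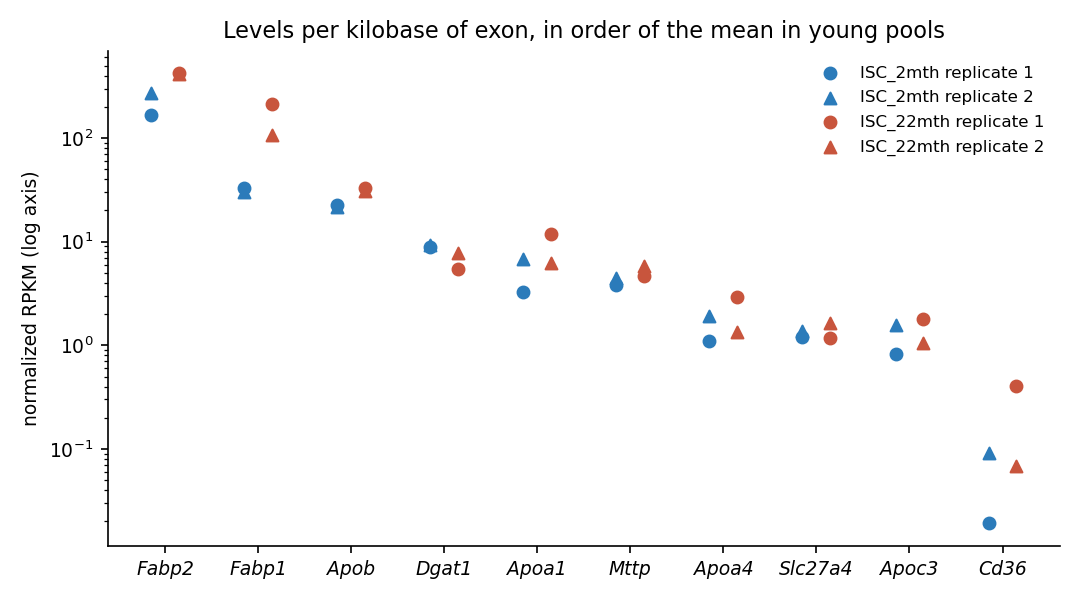
TMM-normalized CPM per kilobase of exon (RPKM, log axis) of the 10 genes in each pool, in order of their mean in young ISCs. Fabp2, Fabp1 and Apob stand above the rest in both ages, from 21.5 to 422 RPKM, and Cd36 reaches at most 0.400 in any pool.

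Other genes of lipid absorption and chylomicron export were counted beside the members. Of 38 listed, 34 were tested and none was called by edgeR's quasi-likelihood test (2.26% of all genes tested), limma voom or DESeq2, while 7 had an unadjusted p under 0.05 (16.9% of all genes tested) and the likelihood ratio test called 1 (4.46%). Both counts are near the share over all genes. Their median log2 fold change was 0.082. The most abundant by the mean of both ages were P4hb, the partner subunit of the Mttp protein, at 117 ± 11.2 CPM in young and 118 ± 6.50 in old ISCs, Acsl5, an acyl-CoA synthetase, with a log2 fold change of 0.25 (95% interval -0.014 to 0.51), and Slc27a2, at 0.17 (-0.10 to 0.45). Chosen after their values were seen, Scd2, a fatty acid desaturase, had the lowest p of the list with a log2 fold change of -0.59 (adjusted p = 0.070 by edgeR), and Sar1b, the GTPase needed for chylomicron export, had 0.46 (adjusted p = 0.11). Apoa5 and Apoc2, whose main source is the liver, had no count in any library.

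Enterocyte markers outside lipid handling were measured beside the members. Of 26 listed, 25 were tested, 7 were called higher and none lower by edgeR's quasi-likelihood test (1.63% and 0.628% of all genes tested), and the median log2 fold change was 0.43. Sis, the brush border sucrase-isomaltase, rose from 33.6 ± 2.05 to 87.2 ± 22.7 CPM (log2 fold change 1.38, adjusted p = 3.4e-05). The peptidases Mep1b and Enpep rose by 1.51 and 1.14 on the log2 scale, the amino acid transporter Slc7a9 by 1.71 and Clec2h by 1.00. Between 6 and 12 of these markers were called with any pool left out. Vil1, a structural protein of the brush border, had a log2 fold change of -0.013 (95% interval -0.27 to 0.24). The list summed to 1106 and 1197 CPM in young and 1605 and 1551 in old pools, and its part in the changes of Fabp1, Fabp2 and Apob was not tested.

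PPARalpha targets of fatty acid oxidation, which share lipid sensing with the carriers, had a median change of 0.44 on the log2 scale, with 3 of 19 tested genes called higher by edgeR's quasi-likelihood test and none lower (1.63% and 0.628% of all genes tested). Among these were Acot1, an acyl-CoA thioesterase (1.33, adjusted p = 3.4e-05), and Acadl, an acyl-CoA dehydrogenase (0.95, adjusted p = 0.0038). Among 24 tested factors known to act on enterocyte lipid genes, 1 was called. Maf, which is expressed in villus enterocytes, rose from 3.73 ± 0.584 to 8.27 ± 1.74 CPM (log2 fold change 1.15, adjusted p = 0.030). Hnf4a, a master factor of enterocyte genes and the most abundant of the list, was at 329 ± 10.1 and 299 ± 14.5 CPM, a log2 fold change of -0.14 (95% interval -0.36 to 0.090). Klf5, an epithelial factor of the crypt, had 0.24 (-0.0080 to 0.48) and Plagl2 -0.056 (-0.30 to 0.19). Ppara itself had a log2 fold change of -0.42 (adjusted p = 0.36). The regulators' median was -0.047.

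**Figure D5:**
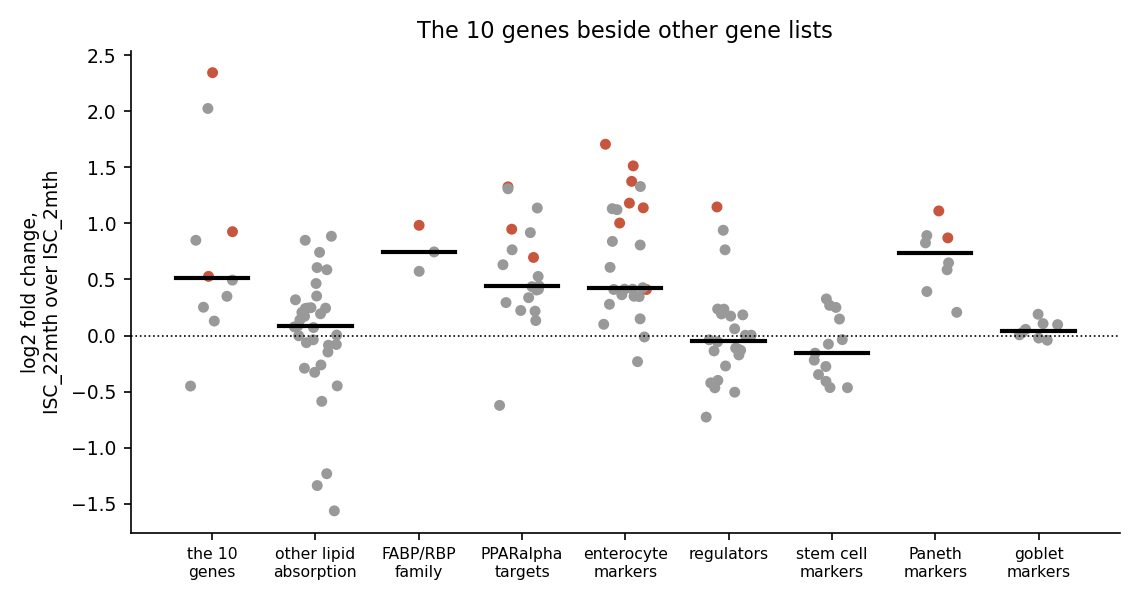
Log2 fold change, ISC_22mth over ISC_2mth, of every tested gene of 9 lists (points, red where the adjusted p was under 0.05), with the median of each list (black bar) and of all genes tested (dotted line). Medians are 0.51 for the 10 genes, 0.44 for PPARalpha targets and 0.43 for enterocyte markers, and 0.75 for the FABP family, 0.74 for Paneth markers, and between -0.16 and 0.082 for the other 4 lists.

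Markers of other cells of the crypt and mucosa were counted the same way, against the same 1.63% of all genes called higher and 0.628% called lower. Among Paneth cell markers, 2 of 8 were called higher (Defa17 and Defa24), the median log2 fold change was 0.74, and the summed level was highest in ISC_22mth replicate 1. The abundant Lyz1 (0.83) and Itln1 (0.65) were not called. Goblet markers had none of 8 called and a median of 0.039, with 0.11 for Muc2, -0.023 for Fcgbp and 0.0061 for Agr2. Enteroendocrine markers had none of 7 called, with 0.22 for Chgb, -0.042 for Gcg and 0.37 for Chga, and they summed to 41.9 and 151 CPM in young and 133 and 95.1 in old pools. The tuft cell list had 1 of 3 called, Dclk1, with 4 and 4 counts in young and 42 and 19 in old pools, while Trpm5 (0.94) and Pou2f3 (-0.21) were not called, and the leukocyte list had 1 of 2, Itgam. Of the surface markers of the sort, Cd24a was called higher (log2 fold change 0.68). Epcam (0.056), Cd44 (-0.24) and Ephb2 (-0.52, adjusted p = 0.058) were not called. For Ephb2, named after its values were seen, both old pools lay below the young, and the study's own list of changed genes holds it as lower. Endothelial and stromal lists had none called, with Lyve1 (0.76) and Prox1 (-0.18) tested in the first and Pdgfrb (-1.43) in the second, and no fat cell marker was tested.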

How the data were processed

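The authors trimmed single-end reads with Trimmomatic 0.30, aligned them to GRCm38 with STAR 2.4.2a and counted exonic reads of GENCODE vM15 genes with featureCounts, and the deposited values are these raw counts per gene, neither normalized nor filtered (strand setting and multi-mapped reads: not given in the sources used here). Depth was 11662654 to 15975698 counts per library, and 3 counts correspond to 0.199 to 0.246 normalized CPM. A gene was kept (13692) if any library had over 5 reads and over 1 CPM for it, normalized by TMM and compared with edgeR 4.0.16 (glmQLFit, glmQLFTest, R 4.3.3), with Benjamini-Hochberg adjustment over all genes kept. Limma 3.58.1, DESeq2 1.42.0 and the alternatives below were also run, and the fit was tested on simulated data. RPKM used exon lengths of GENCODE vM21, matched by symbol (47976 of 52459 names). Replicate pools differed by more than sampling noise. Members and lists were chosen with earlier results of these data known, and 3 members (Fabp1, Fabp2 and Apob) also stand in the study's own list of changed genes, which is not independent evidence. Named genes are all members, up to 6 called genes of lowest p per list, the 3 most abundant where fewer than 3 were called, and the 8 closest to Fabp1, except for some called genes of the lists that are not reported here. Lgr5, Dgat2, Scd2, Sar1b, Vil1, Ppara, Ephb2, the stem cell markers named by direction and genes of the pool pattern were named outside this rule, after their values were seen.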

Additional observations from a re-analysis of the deposited data

How the results depend on the processing

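Fabp1 was called in all 17 alternatives (log2 fold change 1.78 to 2.75), Fabp2 in 16 and Apob in 14. The number of members called stayed between 2 and 5, with 5 only without ISC_22mth replicate 2. The number of genes called was 309 and became 197 with DESeq2, 611 with the likelihood ratio test, 4650 with total counts and 554 with no filter. Leaving out 1 pool gave 151 to 710 genes, 2 to 5 members, 0 to 2 other lipid absorption genes and 6 to 12 enterocyte markers. Of other lipid absorption genes, total counts called 10 and the likelihood ratio test and no filter 1 each. No filter called 11 enterocyte markers. With the replicate block, 623 genes, 4 members, 1 other lipid absorption gene and 12 enterocyte markers were called. Same-numbered pools did not deviate together across all genes (correlation -0.00015), and the main fit used no pairing. This correlation cannot exclude a pairing that touches only some genes. Directions turned under total counts for Apoc3 (-0.23), Mttp (-0.13) and Slc27a4 (-0.35), which were 0.27, 0.36 and 0.14 above the median of all genes. They also turned without ISC_22mth replicate 1 for Apoa4 (-0.17) and Apoc3 (-0.18), without ISC_2mth replicate 1 for Apoc3 (-0.14) and without ISC_22mth replicate 2 for Slc27a4 (-0.13). With a pool left out, Apoa4 ranged from -0.17 to 0.95, Apoc3 from -0.18 to 0.79 and Slc27a4 from -0.13 to 0.35. The causes were not tested. A lone pool of an age is assumed to vary like the other age, and some of these fits gave far smaller adjusted p than all 4 pools did (Fabp2 4.0e-12 without ISC_22mth replicate 2, against 0.0040), so their calls are weak evidence. Cd36 was not tested in 3 alternatives that filtered it out. Depth limits Cd36 and Apoc3, with at most 24 counts per library.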

Other observations

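The genes whose centred log2 CPM over the 4 libraries lay closest to Fabp1 (among genes with a mean of at least 5 CPM) were Ly6e, Gas7, Syna, Car4, Mep1b, Sis, Aldh1a1 and Cd74, at Euclidean distances of 0.80 to 0.99 on the log2 scale. Over 4 libraries this is a description of the same pools and carries no test. Car4, a brush border carbonic anhydrase, had 97 and 128 counts in young and 324 and 212 in old pools, and Aldh1a1, a retinal dehydrogenase, 41 and 81 in young and 210 and 125 in old pools. Like Fabp1, both were higher in ISC_22mth replicate 1 than in ISC_22mth replicate 2, while Cd74 was lower (22.6 against 29.7 CPM). All were picked for closeness to Fabp1 in these pools, so this likeness was partly fixed by the choice.

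Within each age, Apoa1, Apoa4, Apoc3 and Cd36 were higher in ISC_2mth replicate 2 than in replicate 1 and higher in ISC_22mth replicate 1 than in replicate 2, each by more than 0.5 on the log2 scale. The differences were 1.07 and 0.93 for Apoa1, 0.81 and 1.11 for Apoa4, and 0.94 and 0.77 for Apoc3. The pattern was seen after the values were known and was not tested. It held for 4 of 10 members, 3 of 25 enterocyte markers and none of 34 other lipid absorption genes, and for 357 of 13550 genes of all depths with a count in every library (2.63%). Cd36 passed the filter on low counts only through ISC_22mth replicate 1, so its place among the 4 was fixed in part by the filter, and Apoc3 had only 12 to 24 counts per library, so these counts are a description. The 3 enterocyte markers were Lct, Alpi and Guca2b, with differences of 1.22 and 1.36 for the lactase gene Lct. Fabp6 showed it too, at 1.06 and 0.77, but Rbp2 and Rbp7 of its family did not. So did the enteroendocrine genes Chgb (2.34 and 0.53) and Gip (1.06 and 1.95) and the tuft cell gene Trpm5 (2.01 and 0.94). The other tested genes of these cell type lists lacked it (Chga, Gcg, Cck, Sct, Neurog3, Dclk1 and Pou2f3). Fabp1, Fabp2 and Apob did not, as Fabp1 differed between the old pools only (0.97), Fabp2 between the young pools only (0.71), and Apob by at most 0.088 in either age.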
